A study of Mus musculus with 12 samples.

Results

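The Wnt pathway was followed in S1 cells through 45 protein-coding genes: 9 Wnt ligands, 10 Frizzled receptors, the co-receptors, the enzymes and carriers that release Wnt, the secreted antagonists, the R-spondin receptors and their ubiquitin ligases, the cytosolic core and the TCF/LEF factors. They were chosen by a rule on their gene symbols, and earlier results of these data were known when the rule was set. RefSeq lists 64 mouse genes with these symbols, and 45 of them were among the 18926 genes of the deposited tables. The other 19 (*Dkk1*, *Dkk4*, *Nkd1*, *Ror2*, *Rspo1*, *Rspo2*, *Rspo4*, *Sfrp1*, *Sfrp5*, *Wnt1*, *Wnt16*, *Wnt2b*, *Wnt3*, *Wnt3a*, *Wnt5b*, *Wnt7a*, *Wnt8a*, *Wnt8b* and *Wnt9b*) were not analysed here. No gene of the tables had a count of 0 in any library, so a gene silent in even 1 library would not be among them. All 45 genes passed the filter on low counts.

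S1 is a mouse gastric cancer cell line that expresses Cas9. RNA was sequenced from 4 groups of 3 libraries: control cells with a non-targeting guide RNA, cells labelled *Rasa1*-KO, *Nf2*-KO cells and cells labelled double-KO (*Nf2* and *Rasa1*), each made by lentiviral guides. The study describes tumorspheres, the round clusters that such cells form in suspension, while the sample labels say monolayer. The study describes the libraries of a group as technical replications, so every SD, SE and p-value here covers the technical spread between libraries and not that between separate cultures or clones. Neurofibromin 2, the product of *Nf2*, acts upstream of the Hippo kinases, and the product of *Rasa1* switches Ras off.

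The mRNA of the targeted genes went against a pair of labels. *Nf2* lay between 11.6 and 12.1 CPM (counts scaled to an equal library size) in labelled *Rasa1*-KO and between 13.2 and 14.3 CPM in *Nf2*-KO. It lay between 55.4 and 61 CPM in control and between 56.4 and 62.6 CPM in the libraries labelled double-KO. *Rasa1* lay between 60.5 and 78.5 CPM in control, between 30.4 and 34.5 CPM in labelled *Rasa1*-KO and between 17.7 and 23.3 CPM in labelled double-KO. The names of the deposited tables also give the labels *Rasa1*-KO and double-KO the other way round. Both groups are therefore called by their labels throughout. If the labels were exchanged, each value given for one group would be that of the other.

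Wnt ligands are lipid-modified proteins that bind a Frizzled receptor together with a co-receptor. With LRP5 or LRP6 as the co-receptor, Dishevelled is recruited, the destruction complex of APC, AXIN and GSK3 is held back, and β-catenin accumulates and acts with TCF/LEF factors in the nucleus. With ROR or RYK receptors, ligands such as WNT5A act on cell shape and polarity, often without β-catenin. R-spondins bind LGR receptors and keep the ubiquitin ligases RNF43 and ZNRF3 from removing Frizzleds, which raises the response to Wnt. In the stomach, this pathway maintains the stem cells of the glands.

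Total counts were between 43818139 and 96674463 per library. Keratins marked the cells as epithelial, with group means between 684 and 1720 FPKM (fragments scaled to gene length and library size) for *Krt8*, *Krt18* and *Krt19*. The other epithelial markers were lower: *Epcam* had group means between 4.62 and 29.9 FPKM and *Cldn4* between 0.0368 and 0.24 FPKM. *Cldn7* was not in the tables. Of 9 markers of differentiated stomach cells, 6 were not in the tables. Summed FPKM of the fibroblast markers in the tables, 4 of 5, was between 15.6 and 45.7 in control, 30.1 and 37.2 in labelled *Rasa1*-KO, 101 and 115 in *Nf2*-KO, and 7.41 and 8.42 in labelled double-KO. *Ptprc*, which defines leukocytes, had group means between 0.0342 and 0.0709 FPKM. *Cd68*, also on the list of leukocyte markers, was higher. Its mean was lowest in control (5.53 FPKM) and highest in labelled *Rasa1*-KO (15.3 FPKM), while *Nf2*-KO had 10.8 FPKM and labelled double-KO 9.19 FPKM. The control library without a number lay apart from the other control libraries, with a mean distance over the log2 CPM of all tested genes of 147 against 103 and 124.1. Library 1 of labelled double-KO lay apart in the same way (89.3 against 69.2 for the others).

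The level of each gene per length was read from FPKM, the scale that allows genes to be compared. *Ctnnb1*, which encodes β-catenin, was the highest of the 45 in control with 341 ± 42.8 FPKM (SD, n = 3). *Dvl3* was the lowest gene of the cytosolic core with 3.83 ± 2.60 FPKM. Of the ligands, *Wnt10a* had 62.4 ± 15.8 and *Wnt7b* 54.7 ± 5.71 FPKM, a difference smaller than the spread of *Wnt10a*, while *Wnt2* was lowest with 0.0440 ± 0.0402 FPKM. *Wls*, the carrier that brings Wnt to the cell surface, had 55.5 ± 8.98 FPKM, and *Porcn*, the enzyme that attaches the lipid to Wnt, had 4.29 ± 0.489 FPKM. Among the Frizzleds, *Fzd6* (13.5 ± 1.77 FPKM) and *Fzd1* (12.7 ± 0.967 FPKM) were highest and did not differ beyond their spread, and *Fzd3* was lowest with 0.0331 ± 0.0118 FPKM. *Lrp5* was the highest co-receptor (61.7 ± 14.2 FPKM) and *Ror1* the lowest (4.60 ± 1.44 FPKM). In the R-spondin axis, *Lgr4* had 23.9 ± 1.19 and *Lgr6* 0.468 ± 0.249 FPKM. The antagonists were low, from *Dkk3* with 0.0674 ± 0.00924 to *Dkk2* with 0.725 ± 0.529 FPKM. *Tcf7l2* was the highest TCF/LEF factor (8.96 ± 7.23 FPKM) and *Tcf7l1* the lowest (0.212 ± 0.156 FPKM).

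Over the 4 groups, 31 of the 45 genes (68.9%) differed in any way by edgeR's quasi-likelihood test (adjusted p under 0.05), against 46.3% of all 18053 genes tested. The 14 others were *Wnt6*, *Wnt10a*, *Wnt10b*, *Wnt11* and *Wnt2* of the ligands, *Fzd5* and *Fzd8* of the Frizzleds, *Apc*, *Axin1*, *Gsk3b* and *Dvl1* of the core, the antagonist *Sfrp4*, and *Tcf7* and *Tcf7l1*. Against control, the labelled *Rasa1*-KO libraries had 10 genes higher and 13 lower, where 19.7% and 22.2% of all genes were called. *Nf2*-KO had 15 genes higher and 12 lower, where 20.6% and 22.2% of all genes were called. The labelled double-KO libraries had 3 genes higher and 0 lower, where 4% and 2.46% of all genes were called. Of the 45, 8 had an unadjusted p under 0.05 in this comparison, and the share of all genes at that threshold was not counted. The median log2 fold change over the 45 genes was 0.082 for labelled *Rasa1*-KO, -0.03 for *Nf2*-KO and -0.004 for labelled double-KO, against -0.076, -0.07 and -0.035 over all genes. Rises and falls are given by role. The median size of the change, without its sign, was 0.731, 0.822 and 0.238, against 0.525, 0.538 and 0.246 over all genes. In bulk RNA, fewer cells of a type and less RNA per cell cannot be told apart.

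**Figure D1:**
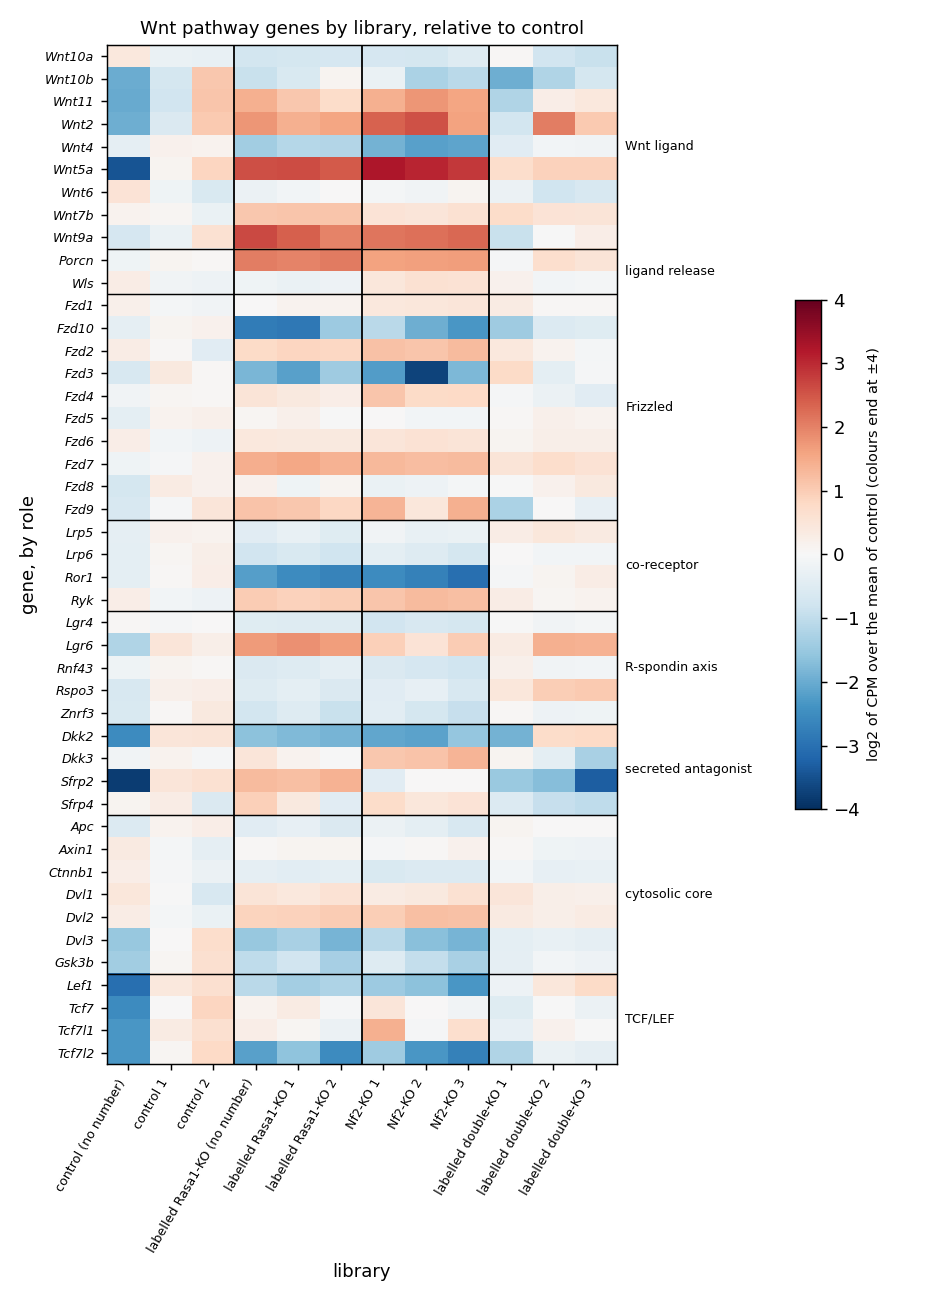
Colour shows, for each of the 45 genes (rows, by role) and 12 libraries (columns), log2 of the CPM over the mean of the 3 control libraries. *Wnt5a*, *Wnt9a* and *Porcn* are higher and *Ror1* and *Fzd10* lower in the 6 libraries of labelled *Rasa1*-KO and *Nf2*-KO, and the control library without a number is pale blue to dark blue for *Lef1*, *Tcf7l2*, *Wnt5a* and *Sfrp2*.

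Among the ligands, *Wnt5a*, *Wnt9a* and *Wnt7b* rose and *Wnt4* fell in both labelled *Rasa1*-KO and *Nf2*-KO. *Wnt5a*, on chromosome 14 of GRCm38 from 28504543 to 28527448, encodes the best known ligand of ROR and RYK receptors. It had 0.149, 1.77 and 2.98 CPM in control, 9.77, 9.88 and 8.89 CPM in labelled *Rasa1*-KO, 15.5, 13.6 and 11.6 CPM in *Nf2*-KO, and 2.66, 3.08 and 3.10 CPM in labelled double-KO. All 6 libraries of the first pair of knockout groups lay above every control library, while labelled double-KO overlapped control. The log2 fold change of *Wnt5a* against control was 3.09 in *Nf2*-KO (SE 0.64, edgeR adjusted p = 0.0024) and 2.58 in labelled *Rasa1*-KO (SE 0.63, edgeR adjusted p = 0.007). Control was the widest group, and these values were 3.83 and 3.32 without control library 2 but 2.53 and 2.02 with the unnumbered control library left out. On log2(FPKM + 1), which understates the change of low genes, they were 1.27 and 0.92. When the labelled *Rasa1*-KO and control libraries were fitted alone, the edgeR adjusted p was 0.057.

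*Wnt9a*, on chromosome 11 from 59306849 to 59333552, encodes a ligand known from blood stem cells and joints. It had 0.308, 0.409 and 0.754 CPM in control, 3.03, 2.57 and 1.95 CPM in labelled *Rasa1*-KO and 2.14, 2.26 and 2.39 CPM in *Nf2*-KO. The log2 fold change was 2.39 in labelled *Rasa1*-KO (SE 0.37, edgeR adjusted p = 4e-04) and 2.23 in *Nf2*-KO (SE 0.37, edgeR adjusted p = 0.00052). The groups did not overlap in either comparison. *Wnt2*, a ligand that can act through β-catenin, rose in *Nf2*-KO by 2.32 (SE 0.73, edgeR adjusted p = 0.023). It had between 43 and 84 counts per *Nf2*-KO library against 4 to 17 per control library, and its adjusted p reached 0.085 over the alternatives.

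*Wnt4*, on chromosome 4 from 137277635 to 137299501, is needed in kidney and female gonad development. It had 23.5, 33.8 and 33.2 CPM in control, 8.06, 6.76 and 7 CPM in *Nf2*-KO, and 11.5, 13.8 and 13.4 CPM in labelled *Rasa1*-KO. The log2 fold change was -2.05 in *Nf2*-KO (SE 0.16, edgeR adjusted p = 2.2e-06) and -1.22 in labelled *Rasa1*-KO. *Wnt7b*, on chromosome 15 from 85535437 to 85581821, is a ligand of epithelia that can signal through β-catenin. It had 216, 204 and 161 CPM in control, 410, 414 and 421 CPM in labelled *Rasa1*-KO, and 283, 273 and 298 CPM in *Nf2*-KO. The log2 fold change was 1.10 and 0.55, respectively. *Wnt10a*, a ligand known from tooth and hair development, fell by 0.70 (log2) in labelled *Rasa1*-KO, a call lost in 7 of 15 alternatives (other settings, or libraries left out), and had a value of -0.62 in *Nf2*-KO (edgeR adjusted p = 0.057).

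**Figure D2:**
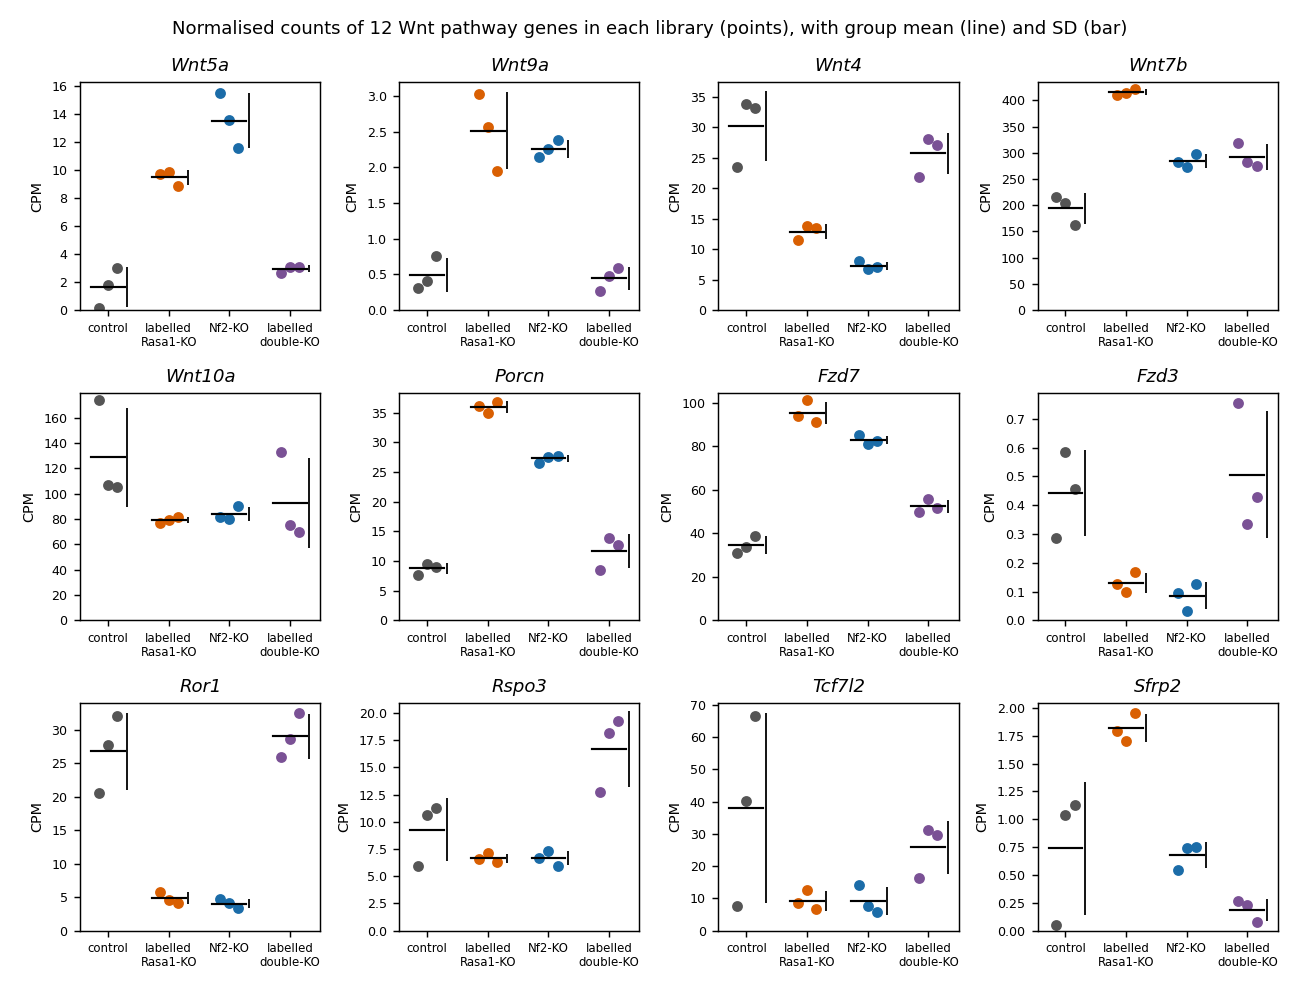
CPM (vertical axes, each from 0) of 12 genes in each library (points) by group, with the group mean (line) and SD (bar, n = 3). The labelled *Rasa1*-KO and *Nf2*-KO points lie apart from control for *Wnt5a*, *Wnt9a*, *Wnt4*, *Wnt7b*, *Porcn*, *Fzd7*, *Fzd3* and *Ror1*, whereas the *Tcf7l2* points of both groups overlap the control library without a number.

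The makeup of the ligand pool also differed. Within each library, the share of a gene in the summed FPKM of the 9 ligands does not depend on the scaling between libraries. *Wnt7b* held 42.2% ± 4.25 of the ligand FPKM in control (SD, n = 3), 61.2% ± 0.268 in *Nf2*-KO, 70.5% ± 0.370 in labelled *Rasa1*-KO and 60.2% ± 4.90 in labelled double-KO. *Wnt10a* held 47.3% ± 5.46 in control, 31% ± 0.595 in *Nf2*-KO, 23.1% ± 0.182 in labelled *Rasa1*-KO and 31.8% ± 6.35 in labelled double-KO. The highest share of *Wnt7b* in a control library, 46.7%, lay below the lowest in any other group, 54.5%. *Wnt5a* stayed a small part of the pool, with 0.251% ± 0.232 in control, 0.925% ± 0.0581 in labelled *Rasa1*-KO and 1.68% ± 0.324 in *Nf2*-KO.

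**Figure D3:**
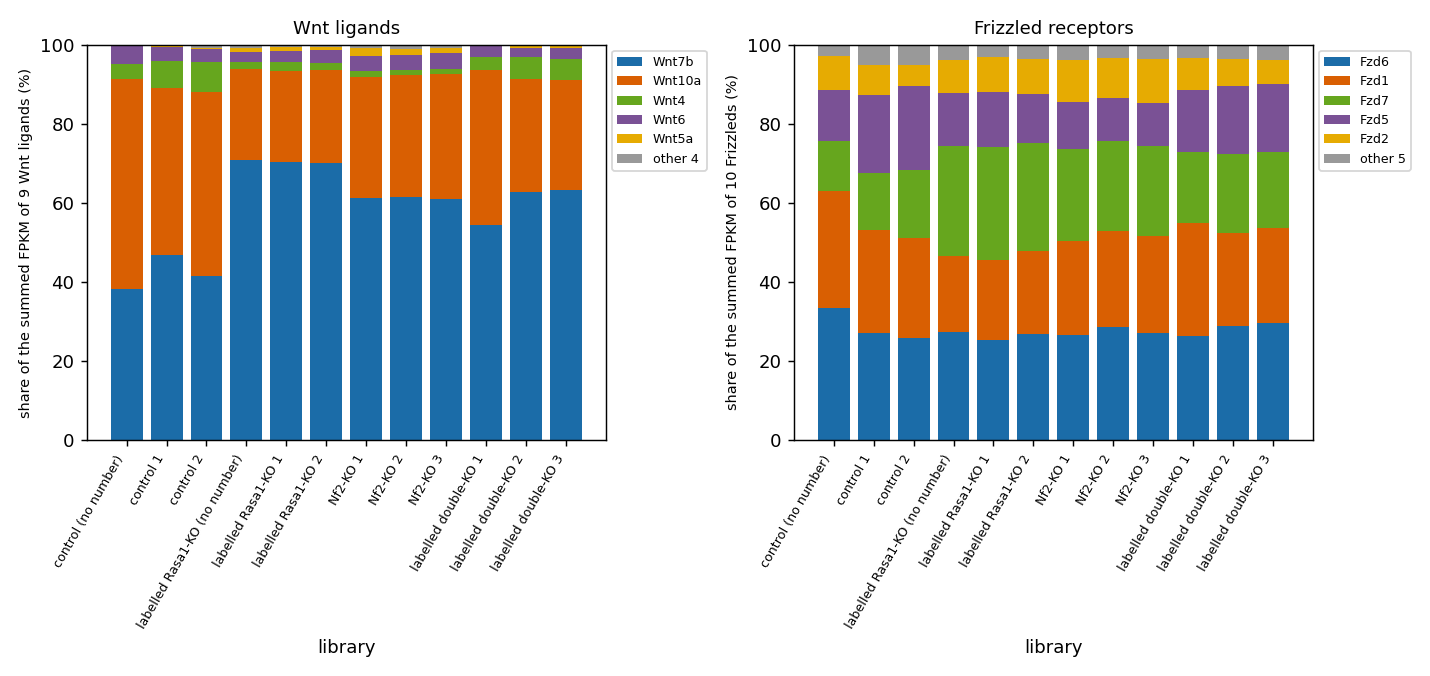
Share (%) of each gene in the summed FPKM of the 9 Wnt ligands (left) and the 10 Frizzleds (right) in each of the 12 libraries, with the 5 most abundant genes shown singly and the rest as other. *Wnt7b* takes between 38.3% and 46.7% in the control libraries and between 70.2% and 70.9% in labelled *Rasa1*-KO, and *Fzd7* takes a larger part in labelled *Rasa1*-KO and *Nf2*-KO than in control.

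Both genes of ligand release were called in *Nf2*-KO. *Porcn*, on chromosome X from 8193846 to 8206548, had 7.72, 9.50 and 9.07 CPM in control, 36.2, 34.9 and 36.8 CPM in labelled *Rasa1*-KO, 26.6, 27.6 and 27.7 CPM in *Nf2*-KO and 8.51, 13.9 and 12.6 CPM in labelled double-KO. Every library of labelled *Rasa1*-KO and *Nf2*-KO lay above all control and labelled double-KO libraries. The log2 fold change was 2.04 in labelled *Rasa1*-KO (SE 0.16, edgeR adjusted p = 3.5e-06) and 1.64 in *Nf2*-KO. *Wls* rose by 0.55 in *Nf2*-KO and had a value of -0.20 in labelled *Rasa1*-KO (edgeR adjusted p = 0.24).

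Of the 10 Frizzleds, 6 rose and 2 fell in *Nf2*-KO, where 20.6% and 22.2% of all genes were called. In labelled *Rasa1*-KO, 3 rose and 2 fell, where 19.7% and 22.2% of all genes were called. *Fzd7*, a Frizzled used by epithelial stem cells of the gut and stomach, lies on chromosome 1 from 59482147 to 59486955. It had 30.9, 33.6 and 38.9 CPM in control, 94.1, 101 and 91.3 CPM in labelled *Rasa1*-KO, 85.0, 81.2 and 82.4 CPM in *Nf2*-KO and 49.7, 55.8 and 51.7 CPM in labelled double-KO. Its log2 fold changes were 1.47, 1.27 and 0.60 in that order, and none of the knockout libraries overlapped control. *Fzd2* and *Fzd6* also rose in both groups, by 1.18 and 0.54 in *Nf2*-KO and by 0.81 and 0.41 in labelled *Rasa1*-KO. *Fzd4* (0.91), *Fzd1* (0.46) and *Fzd9* (1.16) passed the test in *Nf2*-KO. The calls of *Fzd4* and *Fzd1* held in all 15 alternatives, while that of *Fzd9* was lost in 7, both replicate blocks included (adjusted p up to 0.13). In labelled *Rasa1*-KO their values were 0.40, 0.10 and 1.04 with edgeR adjusted p = 0.087, 0.48 and 0.056.

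*Fzd3* and *Fzd10*, the least abundant Frizzleds, fell. *Fzd3*, which acts in planar polarity and axon guidance, had 27, 43 and 23 counts in control, 10, 8 and 13 in labelled *Rasa1*-KO, and 8, 3 and 11 in *Nf2*-KO. This was a log2 fold change of -2.35 in *Nf2*-KO (SE 0.51, edgeR adjusted p = 0.0033) and -1.75 in labelled *Rasa1*-KO (SE 0.50, edgeR adjusted p = 0.015). With log2 FPKM and limma it did not pass the test in either group. *Fzd10* had 13, 14 and 10 counts in control and 2, 2 and 5 in labelled *Rasa1*-KO, a change of -2.16 (log2, SE 0.51, edgeR adjusted p = 0.006), and in *Nf2*-KO it fell by 1.66 (log2). The share of *Fzd7* in the Frizzled FPKM was 14.7% ± 2.27 in control, 28% ± 0.758 in labelled *Rasa1*-KO and 22.9% ± 0.422 in *Nf2*-KO.

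The co-receptors moved apart. *Ror1*, a receptor tyrosine kinase-like protein that binds WNT5A, lies on chromosome 4 from 100095791 to 100444806. It had 20.6, 27.7 and 32 CPM in control, 5.84, 4.65 and 4.17 CPM in labelled *Rasa1*-KO, 4.67, 4.12 and 3.31 CPM in *Nf2*-KO and 25.9, 28.6 and 32.5 CPM in labelled double-KO. The log2 fold change was -2.73 in *Nf2*-KO (SE 0.20, edgeR adjusted p = 1.2e-06) and -2.45 in labelled *Rasa1*-KO (SE 0.20, edgeR adjusted p = 4e-06). Thus *Ror1* fell in the same groups in which *Wnt5a* rose. *Ryk*, the other receptor of this kind in the tables, rose by 1.19 in *Nf2*-KO and 0.98 in labelled *Rasa1*-KO. *Lrp6* fell by 0.53 and 0.73 on the log2 scale, and *Lrp5* fell by 0.40 in labelled *Rasa1*-KO (lost in 5 of 15 alternatives) with a value of -0.23 in *Nf2*-KO (edgeR adjusted p = 0.17).

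In the R-spondin axis, *Lgr4* and both ubiquitin ligases fell in the 2 groups. *Lgr4* had 129, 122 and 127 CPM in control, 90.7, 88.0 and 88.7 CPM in labelled *Rasa1*-KO and 74.8, 81.6 and 76.6 CPM in *Nf2*-KO, log2 fold changes of -0.50 and -0.70. *Rnf43* changed by -0.49 and -0.68, and *Znrf3*, whose libraries overlapped control, by -0.70 and -0.67. The calls of *Znrf3* were lost in 5 and 7 of 15 alternatives (adjusted p up to 0.11 and 0.12). *Lgr6* rose by 1.74 in labelled *Rasa1*-KO and had a value of 0.86 in *Nf2*-KO (edgeR adjusted p = 0.089). *Rspo3*, the R-spondin in the tables, had values of -0.48 and -0.47 and did not pass the test in either. It passed with the unnumbered control library left out (-0.72 and -0.71, edgeR adjusted p = 0.0025 and 0.0026) and with the replicate block by table names (-0.61 in both).

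Of the antagonists, *Dkk3*, the Dickkopf that is not known to bind LRP5 or LRP6, rose by 1.19 in *Nf2*-KO, from 12 to 21 counts per control library to 44 to 54. *Dkk2*, an antagonist that binds LRP5 and LRP6, had 0.489, 3.84 and 3.99 CPM in control against 0.891, 0.815 and 0.770 CPM in labelled *Rasa1*-KO and 0.659, 0.627 and 0.940 CPM in *Nf2*-KO. The control library without a number lay below every library of both knockout groups, and *Dkk2* did not pass the test (edgeR adjusted p = 0.075 and 0.056). Without that library, its log2 fold changes were -2.24 and -2.39 (edgeR adjusted p = 0.0033 and 0.0022).

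In the cytosolic core, the Dishevelled genes *Dvl2* and *Dvl3* parted. *Dvl2* rose by 1.12 in *Nf2*-KO and by 0.94 in labelled *Rasa1*-KO, from 28.6, 22 and 19.6 CPM in control to 46.3, 53.8 and 52.8 CPM and to 43.0, 43.9 and 47.6 CPM. *Dvl3* fell by 1.49 and 1.53 on the log2 scale, from 6.70, 19.2 and 31.1 CPM, with overlap at the control library without a number. Its calls were lost in 4 and 3 of 15 alternatives (adjusted p up to 0.07 and 0.063). *Dvl1* had values of 0.45 and 0.50 and did not pass the test (edgeR adjusted p = 0.11 and 0.082). With the unnumbered control library left out, *Dvl1* passed with 0.76 and 0.80 (edgeR adjusted p = 0.0015 and 0.00099). *Ctnnb1* fell by 0.56 and 0.39, from 1549, 1243 and 1098 CPM in control to 847, 891 and 895 CPM in *Nf2*-KO. The call of *Ctnnb1* in labelled *Rasa1*-KO, where it had 1007, 964 and 989 CPM, was lost in 5 of 15 alternatives, those without each of its own libraries included (edgeR adjusted p up to 0.15). *Apc*, *Axin1* and *Gsk3b* of the destruction complex did not pass the test over all libraries. With the unnumbered control library left out, all 3 passed in *Nf2*-KO and labelled *Rasa1*-KO, *Gsk3b* with -1.27 and -1.40 (edgeR adjusted p = 0.00027 and 0.00013), *Apc* with -0.62 and -0.65 and *Axin1* with 0.28 and 0.31.

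*Tcf7l2*, on chromosome 19 from 55741797 to 55933659, fell in both groups, by 2.05 (log2) in *Nf2*-KO and 2.04 in labelled *Rasa1*-KO. It had 7.59, 40.1 and 66.4 CPM in control against 14.2, 7.52 and 5.84 CPM in *Nf2*-KO and 8.43, 12.6 and 6.60 CPM in labelled *Rasa1*-KO. Again the control library without a number overlapped the knockout libraries. The change was -1.40 and -1.39 without control library 2, with edgeR adjusted p = 0.086 and 0.09. With the unnumbered control library left out, it was -2.53 in both groups (edgeR adjusted p = 0.00011 and 0.00012). *Lef1* fell by 1.75 in *Nf2*-KO (edgeR adjusted p = 0.049), also with overlap and with the call lost in 10 of 15 alternatives (adjusted p up to 0.16). In labelled *Rasa1*-KO it had a value of -1.22 (edgeR adjusted p = 0.15). Without the unnumbered control library, *Lef1* had -2.28 in *Nf2*-KO and -1.75 in labelled *Rasa1*-KO (edgeR adjusted p = 3.7e-05 and 0.00028). *Tcf7* and *Tcf7l1* did not pass the test.

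**Figure D4:**
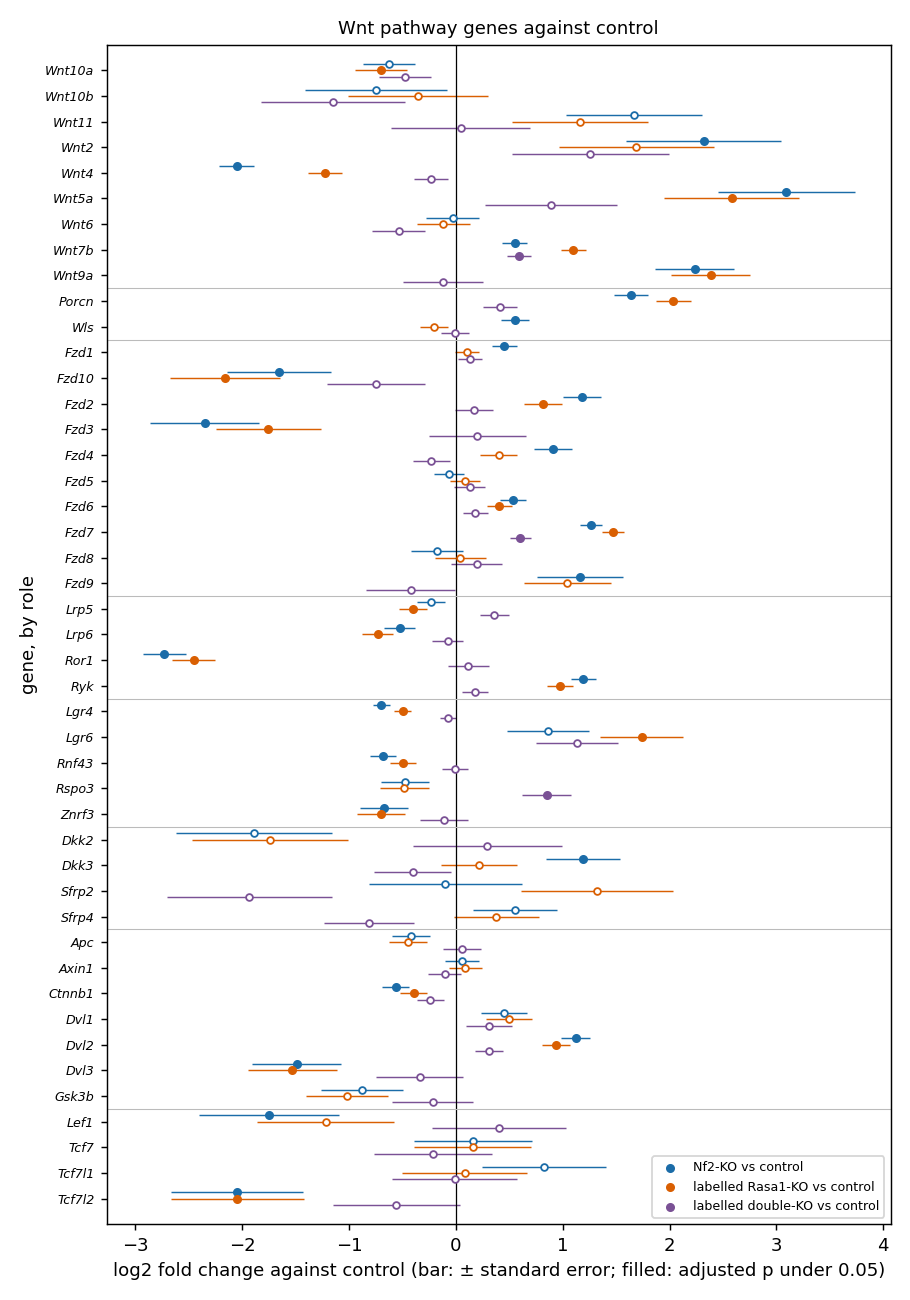
Log2 fold changes against control (horizontal axis) of the 45 genes, by role, in *Nf2*-KO, labelled *Rasa1*-KO and labelled double-KO, with the SE as bars and filled points for an adjusted p under 0.05. The *Nf2*-KO and labelled *Rasa1*-KO points lie far from 0 for *Wnt5a*, *Wnt9a*, *Porcn*, *Ror1* and *Tcf7l2*, and filled points of labelled double-KO are those of *Wnt7b*, *Fzd7* and *Rspo3*.

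The counts of lower genes moved more with single libraries than those of higher genes. The shares of all genes called lower moved as well. With the unnumbered control library left out, 17 genes were lower in labelled *Rasa1*-KO and 19 in *Nf2*-KO, where 30.2% and 31% of all genes were called. Without *Nf2*-KO library 2 or 3 the count of *Nf2*-KO was 7 or 6 (16.7% or 16.1% of all genes). Without the labelled *Rasa1*-KO library 2 or that without a number the count of labelled *Rasa1*-KO was 7 (15.5% or 15.8%). When only the groups compared were fitted, 7 genes were lower in each (13.6% of all genes in labelled *Rasa1*-KO, 15.8% in *Nf2*-KO).

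Against control, 3 genes were called in labelled double-KO, all higher. *Wnt7b* had 319, 282 and 275 CPM against 216, 204 and 161 CPM in control, a log2 fold change of 0.59 (SE 0.12, edgeR adjusted p = 0.011). *Fzd7* rose by 0.60 (SE 0.10, edgeR adjusted p = 0.005). *Rspo3*, which encodes an R-spondin, lies on chromosome 10 from 29453106 to 29535867 and had 12.7, 18.2 and 19.2 CPM against 5.98, 10.6 and 11.3 CPM in control. Its log2 fold change was 0.85 (SE 0.23, edgeR adjusted p = 0.048), a call lost in 7 of 16 alternatives. *Wnt5a* had a log2 fold change of 0.89 (SE 0.62, edgeR adjusted p = 0.45).

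With table-name numbers as a replicate block, 6 genes were higher and 1 was lower in labelled double-KO: *Lgr6* (1.2), *Lrp5* (0.38) and *Porcn* (0.39) joined the 3 genes above, and *Wnt10a* was lower (-0.50). There, 8.03% and 5.82% of all genes were called. With the unnumbered control library left out, 7 were higher and 4 lower (17.2% and 12.9% of all genes), and without both libraries that lay apart 10 and 2 (17.1% and 12.8%). When only these 2 groups were fitted, edgeR called 0 genes (0.051% of all genes in each direction). DESeq2 over all groups called 4 higher and 0 lower (6.97% and 4.92%).

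Between the labelled double-KO and labelled *Rasa1*-KO libraries, 9 genes were higher and 11 lower in the former, where 16.3% and 14% of all genes were called. *Sfrp2*, a secreted protein with a Frizzled-like domain that binds Wnt, lies on chromosome 3 from 83765750 to 83774314. It had 24, 17 and 6 counts in labelled double-KO against 143, 140 and 152 in labelled *Rasa1*-KO, a log2 fold change of -3.25 (SE 0.78, edgeR adjusted p = 0.009). In control it had 5, 76 and 57 counts. *Ror1* was higher in labelled double-KO by 2.57 (SE 0.20, edgeR adjusted p = 6.4e-06) and *Fzd3* by 1.95 (SE 0.49, edgeR adjusted p = 0.011). *Wnt9a* was lower by a log2 fold change of -2.50 (SE 0.37, edgeR adjusted p = 5e-04), with 0.263, 0.482 and 0.590 CPM in labelled double-KO. *Porcn* was lower by -1.62 (SE 0.16, edgeR adjusted p = 3.4e-05), and *Fzd9* by -1.47 (SE 0.41, edgeR adjusted p = 0.018). *Wnt5a* had a log2 fold change of -1.69 (SE 0.60, edgeR adjusted p = 0.053) although the groups did not overlap.

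The other genes higher in labelled double-KO than in labelled *Rasa1*-KO were *Rspo3* (1.33), *Dvl3* (1.19), *Wnt4* (0.99), *Lrp5* (0.76), *Lrp6* (0.66), *Rnf43* (0.48) and *Lgr4* (0.42). The call of *Dvl3* (adjusted p = 0.049) was lost in 9 of 15 alternatives, those without any 1 of the 6 libraries included, and the calls of *Fzd2* and *Fzd4* were lost in 5 each. The other lower genes were *Sfrp4* (-1.19), *Fzd7* (-0.87), *Ryk* (-0.80), *Fzd2* (-0.64), *Fzd4* (-0.63), *Dvl2* (-0.63) and *Wnt7b* (-0.51). So both LRP co-receptors and 3 of the 5 genes of the R-spondin axis were higher (16.3% of all genes). Of the 10 Frizzleds, 4 were lower (14% of all genes). *Sfrp4*, another secreted Frizzled-like protein, had 27 counts or fewer in every library, and DESeq2 did not call it. The count of higher genes was 15 with the replicate block by table names (21.2% of all genes) and 16 without both libraries that lay apart (25.7%). Without those libraries, *Dkk2* (2.51), *Lef1* (1.85) and *Tcf7l2* (1.73) also passed the test.

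Labelled *Rasa1*-KO and *Nf2*-KO differed from each other in 3 genes, 2 higher and 1 lower in labelled *Rasa1*-KO, where 1.92% and 1.74% of all genes were called. *Wnt4* was higher by 0.83 (SE 0.16, edgeR adjusted p = 0.015) and *Wnt7b* by 0.55 (SE 0.12, edgeR adjusted p = 0.023), calls lost in 5 and 7 of 15 alternatives. *Wls*, on chromosome 3 from 159839650 to 159938666, had 247, 232 and 239 CPM in labelled *Rasa1*-KO against 381, 418 and 413 CPM in *Nf2*-KO. It was lower by a log2 fold change of -0.76 (SE 0.13, edgeR adjusted p = 0.0096). *Wnt5a* had a value of -0.51 (SE 0.58, edgeR adjusted p = 0.78). With only these groups in the fit, 8 genes were higher and 7 lower, where 12% and 13.8% of all genes were called. Without labelled *Rasa1*-KO library 1 or 2, or *Nf2*-KO library 2, edgeR called 0 of the 45. In those fits, at most 0.858% of all genes were called higher and at most 0.55% lower. Of the 45, 9 had an unadjusted p under 0.05 over all libraries, where the share of all genes was again not counted.

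The spread within a group differed between the groups. In control, 20 of the 45 genes had a highest library over 2 times the lowest, against 36.1% of all genes. In 18 of these 20 the lowest library was the one without a number. The ratio was 21.3 for *Sfrp2*, 20 for *Wnt5a*, 12.6 for *Lef1*, 10.3 for *Tcf7* and 8.75 for *Tcf7l2*, so the factors that act with β-catenin were among the widest. Such a spread was found in 10 of the 45 genes in labelled double-KO (22.2%, against 17.1% of all genes), 5 in *Nf2*-KO (11.1% against 9.33%) and 2 in labelled *Rasa1*-KO (4.44% against 9.02%). In labelled double-KO, library 1 was the lowest for 7 of the 10.

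The bases before the start sites were read from RefSeq promoters of GRCm38.p6, with 250 bases per window and 37 windows for 29 of the 45 genes. Both strands were searched for CTTTGA, the core of TCF/LEF sites, GGAATG, the core of TEAD sites, and TGANTCA, the AP-1 site, letters that were found without overlap in the windows printed. CTTTGA was found in 5 of the 37 windows, against 13.8% of 32851 windows of all genes, GGAATG in 2 against 12.6% and TGANTCA in 1 against 6.75%. The genes with CTTTGA were *Fzd1*, *Gsk3b*, *Lef1*, *Ror1* and *Wnt11*, and those with GGAATG were *Dvl2* and *Lgr4*. Shown are *Ror1* and *Lgr4*, which fell, and *Dvl2*, which rose in labelled *Rasa1*-KO and *Nf2*-KO, 5′ to 3′ on the strand of the gene, with motif letters in capitals. They lie at chr4:100095541-100095790, chr2:109917397-109917646 and chr11:70000342-70000591, all on the plus strand. A match is a description of letters, and binding was not measured.
Ror1: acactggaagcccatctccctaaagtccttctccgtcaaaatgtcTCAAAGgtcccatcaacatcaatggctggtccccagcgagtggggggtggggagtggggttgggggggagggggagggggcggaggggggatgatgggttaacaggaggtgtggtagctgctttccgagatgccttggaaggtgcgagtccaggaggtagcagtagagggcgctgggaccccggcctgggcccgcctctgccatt
Lgr4: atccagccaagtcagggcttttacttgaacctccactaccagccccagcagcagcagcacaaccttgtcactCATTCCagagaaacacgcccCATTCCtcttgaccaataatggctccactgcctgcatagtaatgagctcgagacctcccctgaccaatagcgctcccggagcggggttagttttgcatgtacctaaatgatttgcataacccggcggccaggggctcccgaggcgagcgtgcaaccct
Dvl2: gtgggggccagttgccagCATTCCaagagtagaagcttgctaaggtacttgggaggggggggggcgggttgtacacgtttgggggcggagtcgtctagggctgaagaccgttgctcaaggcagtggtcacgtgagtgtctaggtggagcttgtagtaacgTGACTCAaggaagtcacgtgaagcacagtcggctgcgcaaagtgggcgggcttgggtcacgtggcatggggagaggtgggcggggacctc

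Other genes of the pathway were taken from lists written from general knowledge. Of 16 tested target genes of β-catenin, 4 were higher and 7 lower in labelled *Rasa1*-KO, 3 and 6 in *Nf2*-KO, and 1 and 0 in labelled double-KO. The shares of all genes called were 19.7% and 22.2%, 20.6% and 22.2%, and 4% and 2.46%. The median log2 fold changes of the target genes were -0.53, -0.48 and 0.11, against -0.076, -0.07 and -0.035 over all genes. *Aqp5*, a water channel and marker of gastric stem cells, rose by 3.65 in labelled *Rasa1*-KO and 3.20 in *Nf2*-KO, and *Ccnd1*, which encodes cyclin D1, rose by 1.16 in *Nf2*-KO, 1.52 in labelled *Rasa1*-KO and 0.52 in labelled double-KO. *Prox1* (-1.79 and -2.16) and *Cd44* (-1.60 and -1.48) fell in labelled *Rasa1*-KO and *Nf2*-KO. *Prox1* had few counts, with means of 0.0749 CPM in labelled *Rasa1*-KO and 0.269 CPM in control, against 158 and 478 CPM for *Cd44*. Between labelled double-KO and labelled *Rasa1*-KO, where 16.3% and 14% of all genes were called higher and lower, 5 target genes were higher, with *Prox1* (2.21), *Axin2* (1.75), a feedback inhibitor, and *Lgr5* (1.64) moving most, and 3 were lower, with *Aqp5* at -3.32. Against control, *Axin2* and *Lgr5* were among the genes lower in labelled *Rasa1*-KO, with log2 fold changes of -1.28 and -1.47.

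Of 15 tested modulators at the cell surface, 5 were higher and 5 lower in labelled *Rasa1*-KO (19.7% and 22.2% of all genes), 6 and 6 in *Nf2*-KO (20.6% and 22.2%), and 3 and 0 in labelled double-KO (4% and 2.46%). The list overlapped that of the target genes: *Notum*, *Apcdd1* and *Lgr5* were counted in both. *Trabd2b*, a membrane protease that inactivates Wnt, fell by 4.17 on the log2 scale in labelled *Rasa1*-KO and 2.88 in *Nf2*-KO, and *Gpc4*, a glypican, fell by 3.81 and 3.40. *Tspan12*, a partner of FZD4, rose by 3.30 in labelled *Rasa1*-KO, by 1.92 in *Nf2*-KO and by 1.67 in labelled double-KO. *Adgra2*, a partner in the response to WNT7A and WNT7B, rose by 2.53 in *Nf2*-KO and by 1.61 in labelled *Rasa1*-KO. In labelled double-KO against labelled *Rasa1*-KO, 6 were higher and 5 lower (16.3% and 14% of all genes), led by *Trabd2b* at 5.00.

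Of 37 tested genes inside the cell, 5 were higher and 12 lower in labelled *Rasa1*-KO (19.7% and 22.2% of all genes), 6 and 12 in *Nf2*-KO (20.6% and 22.2%), and 0 and 2 in labelled double-KO (4% and 2.46%). In each comparison with control, higher genes made up a smaller and lower genes a larger share of this list than of all genes. These gaps rest on few genes and were not tested. *Dact3*, an antagonist of Dishevelled, rose by 2.30 in labelled *Rasa1*-KO and 3.69 in *Nf2*-KO. *Bcl9*, a co-activator of β-catenin, fell by 1.93 and 1.85, *Cxxc4*, an inhibitor of Dishevelled, by 1.91 and 2.05, and *Tle2*, a co-repressor, by 1.89 and 1.74. In labelled double-KO against labelled *Rasa1*-KO, 13 were higher and 4 lower (16.3% and 14% of all genes).

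Of 19 genes of planar polarity, a program of oriented cell arrangement, 0 were higher and 7 lower in labelled *Rasa1*-KO (19.7% and 22.2% of all genes) and 3 and 7 in *Nf2*-KO (20.6% and 22.2%). In labelled double-KO, 1 was higher and 2 were lower (4% and 2.46%). The polarity cadherins *Celsr2* (-2.68 and -2.24) and *Celsr1* (-1.77 and -1.95) fell in labelled *Rasa1*-KO and *Nf2*-KO, while *Prickle2* rose by 3.01 in *Nf2*-KO. In labelled double-KO against labelled *Rasa1*-KO, 8 were higher and 1 was lower (16.3% and 14% of all genes), *Prickle2* with -3.38.

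Markers of fibroblasts moved in the same groups as these genes. *Col1a1* rose by 5.00 in *Nf2*-KO and 2.66 in labelled *Rasa1*-KO, *Col1a2* by 9.47 and 7.27 and *Pdgfra* by 4.45 and 3.28. *Dcn* fell by 0.72 and 1.13 on the log2 scale. *Epcam*, a marker of epithelium, fell by 2.63 and 1.55, but the list of epithelial markers did not fall as a whole. Of its 5 tested genes, 0 were higher and 1 lower in *Nf2*-KO (20.6% and 22.2% of all genes). In labelled *Rasa1*-KO, 3 were higher and 1 lower (19.7% and 22.2%). Their median log2 fold changes were 0.107 and 0.697. The part of these genes in the changes of the Wnt pathway was not tested.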

How the data were processed

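RNA of 12 libraries, 3 in each of 4 groups, was sequenced after removal of rRNA with a stranded total RNA kit. Per the submitters' processing notes and the study's methods, Trimmomatic 0.38 removed adapters, HISAT2 2.1.0 mapped the reads on mm10, SAMtools 1.9 handled the alignments and the authors quantified RefSeq genes with StringTie 2.1.3b. They deposited raw read counts per gene, which are not normalized, and FPKM, which divide by transcript length and mapped reads. The deposited TPM and log2 values were not used. Genes were matched by symbol and Entrez ID, and positions are from RefSeq of GRCm38.p6.

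Groups were taken from the genotype labels. Counts were tested in R 4.3.3 with edgeR 4.0.16 (TMM, filterByExpr, quasi-likelihood F test) in 1 fit of 18053 genes and 12 libraries with 8 residual degrees of freedom, for 5 comparisons and any difference over the 4 groups. P-values were adjusted by Benjamini-Hochberg over all genes, and calls had an adjusted p under 0.05. CPM are TMM-normalized. Distances between libraries used log2 CPM with a prior count of 2. With 3 libraries against 3, the smallest p of an exact permutation test is 0.1, so none was run. The median SE of a log2 fold change over all genes was between 0.212 and 0.214.

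Full statistics are given, per comparison, for up to 6 genes with the largest change among those called without overlap between groups, and for *Wnt5a*. Other called genes are given with their log2 fold change, and of each other list up to 4 called genes per comparison. The genes, lists and rules were chosen with earlier results of these data known. *Dkk2*, *Rspo3*, *Wnt10a* and others that were not called are named with their values after these were seen.

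The alternatives, each run by itself, were: RLE size factors, DESeq2 1.42.0, no filter, only the groups compared, a replicate block by sample titles or by table names, the authors' rule (a fold of at least 3 and raw p under 0.05), limma 3.58.1 on log2(FPKM + 1) and log2(FPKM + 0.1), and each library left out. DESeq2 changed the size factors along with the test, and limma changed the values along with the test. Leaving out both libraries that lay apart, and the block in a fit of labelled double-KO and control alone, were chosen after the data were seen. Numbers in the sample titles did not pair libraries: deviations from the group means of same-numbered control and labelled *Rasa1*-KO libraries had correlations of 0.056, 0.164 and -0.045. Numbers in the names of the tables paired control with labelled double-KO, with correlations of 0.626, 0.313 and 0.444, all over the 0.1 set for pairing. Of the other pairs, control 1 with labelled double-KO 3 (0.258) and control 2 with labelled double-KO 2 (0.399) were nearly as high, so these numbers set apart the libraries without a table number rather than the rest. Libraries of a group differed by more than sampling noise (median chi-square per gene between 2.4 and 44.4), so none was a library deposited again and each entered the fit. As technical replications per the study, they are not independent cultures. The code was tested on simulated data. Figures were drawn with matplotlib 3.10.9.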

Additional observations from a re-analysis of the deposited data

How the results depend on the processing

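Of the 76 calls of single genes, 43 were kept in every alternative other than the authors' rule (13 of 23 in labelled *Rasa1*-KO and 17 of 27 in *Nf2*-KO against control, 0 of 3 in labelled double-KO against control, 13 of 20 between labelled double-KO and labelled *Rasa1*-KO, and 0 of 3 between labelled *Rasa1*-KO and *Nf2*-KO), and 0 reversed. RLE size factors kept all 76, DESeq2 75, no filter 73, the 2 scales of log2 FPKM 63 and 66, and the fit of only the groups compared 57. In that fit, 7 genes were lower in labelled *Rasa1*-KO and 7 in *Nf2*-KO against control (13.6% and 15.8% of all genes). For labelled double-KO, edgeR called 0 higher against control (0.051%) and 15 higher against labelled *Rasa1*-KO (23.8%). In labelled *Rasa1*-KO against *Nf2*-KO, 8 were higher and 7 lower (12% and 13.8%). The authors' rule gave 5 higher and 5 lower in labelled *Rasa1*-KO against control (3.16% and 6.11% of all genes). It gave 5 and 7 in *Nf2*-KO (3.76% and 7.63%) and 0 and 1 in labelled double-KO (0.576% and 1.46%). Between labelled double-KO and labelled *Rasa1*-KO it gave 4 and 4 (3.64% and 2.02%). Between labelled *Rasa1*-KO and *Nf2*-KO it gave 0 and 0 (0.798% and 0.487%). For the last comparison, DESeq2 gave 2 lower genes (4.25%), log2(FPKM + 1) 1 higher and 2 lower (1.48% and 3.27%), and log2(FPKM + 0.1) 2 lower (2.47%).

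With the replicate block by table names, 6 genes were higher and 1 lower in labelled double-KO against control (8.03% and 5.82% of all genes). Against labelled *Rasa1*-KO, 15 were higher in labelled double-KO (21.2%). In labelled *Rasa1*-KO against *Nf2*-KO, 4 were higher and 2 lower (4.28% and 4.38%). In a fit of labelled double-KO and control alone, that block left 1 gene higher (1.24%). With the block by sample titles, 1 gene was higher in labelled *Rasa1*-KO against *Nf2*-KO (0.759%). With that block, *Rasa1* in *Nf2*-KO had a log2 fold change of 0.40 that missed the threshold (0.43 with only the groups compared). Without both libraries that lay apart, 20 genes were lower in *Nf2*-KO against control (33.9%). In labelled double-KO, 10 were higher and 2 lower against control (17.1% and 12.8%), and 16 were higher against labelled *Rasa1*-KO (25.7%). In labelled *Rasa1*-KO against *Nf2*-KO, 6 were higher and 7 lower (8.76% and 10.5%).

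With 1 library left out at a time, higher and lower genes numbered 9 to 13 and 7 to 17 in labelled *Rasa1*-KO, 13 to 16 and 6 to 19 in *Nf2*-KO, and 2 to 7 and 0 to 4 in labelled double-KO against control, 7 to 10 and 8 to 10 between labelled double-KO and labelled *Rasa1*-KO, and 0 to 1 and 0 to 1 between labelled *Rasa1*-KO and *Nf2*-KO. The shares of all genes called higher and lower moved as well. Against control, they were 14.9% to 30.3% and 15.5% to 30.2% in labelled *Rasa1*-KO, and 16% to 30.6% and 16.1% to 31% in *Nf2*-KO. In labelled double-KO they were 1.93% to 17.2% and 0.72% to 12.9%. Against labelled *Rasa1*-KO they were 10.5% to 14.1% and 8.91% to 11.3% in labelled double-KO. Between labelled *Rasa1*-KO and *Nf2*-KO both stayed under 1%. Genes that differed over the 4 groups numbered 25 to 36. For this test the share of all genes was not counted in those fits, so the range is not read as particular to the Wnt genes. In the comparisons with control, the highest counts came with the unnumbered control library left out, except that of higher genes in labelled *Rasa1*-KO, which came without control library 2. The cause of these changes was not tested. Genes with few counts, such as *Fzd10* with 2 to 14 and *Fzd3* with 3 to 69 per library, are limited by counting error.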
